A study of Arabidopsis thaliana with 6 samples.

Results

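The RAV family of Arabidopsis was followed through the binding map of EBS (EARLY BOLTING IN SHORT DAYS). Its 6 members were chosen by gene identity, with earlier results of these data known. They were RAV1 (AT1G13260), EDF3 (AT3G25730), TEM1 (AT1G25560), TEM2 (AT1G68840, also named RAV2), AT1G50680 and AT1G51120. The last pair is listed as RAV3 and RAV3-like, but the gene table used here gives neither a symbol, so they are called by their locus names. They stand among 27444 protein-coding genes on the 5 nuclear chromosomes. EBS binding was measured by ChIP-seq, the sequencing of DNA recovered with an immunoprecipitated protein, in whole Col-0 seedlings, about 10 days old and kept in 16 h light and 8 h dark. All plants, input samples included, were ebs shl mutants, which lack EBS and its relative SHL, and carried a transgene for FLAG-tagged EBS under its native promoter. The series held 6 samples, 3 anti-FLAG ChIP replicates with 1 peak list each and 3 input DNA samples without a list of their own here. Plants without the tag were not analysed here, so EBS binding and a recurring background of the method cannot be told apart in any peak.

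RAV proteins are transcription factors with an AP2 domain and a B3 domain, each of which binds DNA. TEM1 and TEM2 (TEMPRANILLO) are close relatives that keep young plants from flowering early by repressing FT, the gene of the mobile flowering signal, and genes of gibberellin synthesis. RAV1 restrains growth and promotes leaf ageing, and RAV1, EDF3, TEM1 and TEM2 are also known as the EDF genes, which respond to ethylene. EBS is itself a repressor of flowering and reads methylated histone H3 tails.

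The 3 lists held 5237, 4216 and 3661 nuclear peaks in replicates 1, 2 and 3. Each peak has the authors' score, which the named peak caller writes as -10 log10 of a p-value. Scores move with depth, which the lists do not give, so they were read within a list, as the share of its nuclear peaks that scored lower. Where 1 score mark of 100 is used for all lists, it keeps 27.5% of the replicate 1 list, 32.0% of replicate 2 and 50.4% of replicate 3. Replicate 3 stood apart in its scores, with a median of 102 against 33.4 and 42.7 in replicates 1 and 2. The lowest score in replicate 3 was 20.01. The labels do not state whether the replicates were grown apart, and differences between them can be technical. In whole seedlings, occupancy in few cells and weak occupancy in many cannot be told apart.

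EBS peaks were found at 3 of the 6 genes, TEM2, RAV1 and TEM1, and the other 3 had none. Each of the 3 had a peak on the gene body in every list, and no peak of any list lay on EDF3, AT1G50680 or AT1G51120 or within 1000 bp of them. Merged where they shared at least 1 bp, the peaks of all 3 lists formed a region at 3 of 6 members. Such a reproducible region lay within 1000 bp of 6.68% of all protein-coding genes, and on the body of 4.7%. A body peak of every single list, as at the 3 members, was found for 1029 of all genes (3.75%). The same 3 members had a peak in each single list, in which 20.8%, 17.1% and 11.7% of all genes did. At the other end, 68.3% of all genes had no peak in any list, as did the remaining 3 members. With 6 genes chosen with earlier results of these data known, these counts are a description and no test was made of them.

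**Figure D1:**
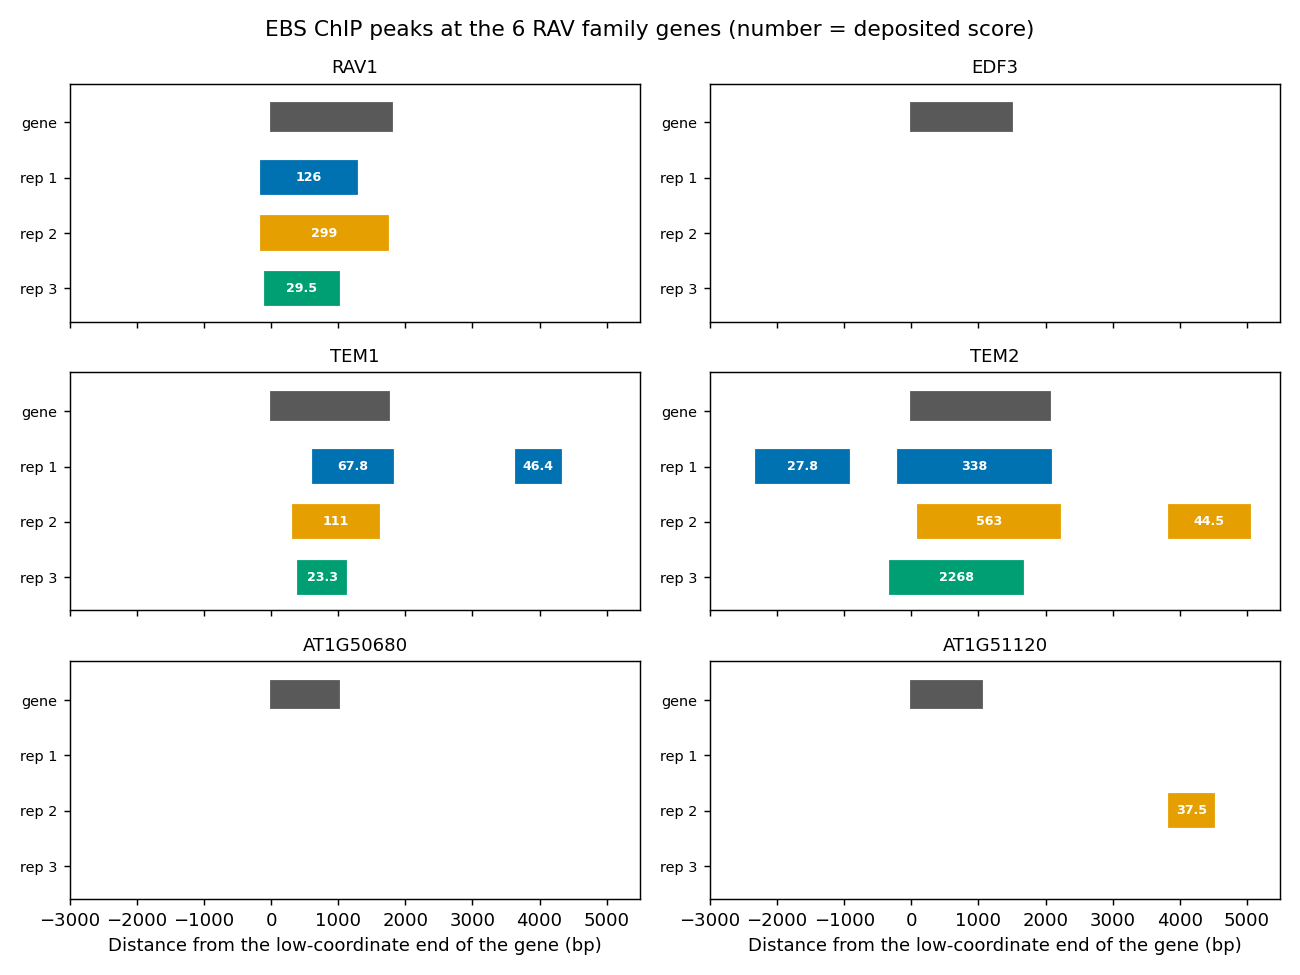
Peaks of the 3 ChIP lists at the 6 genes, drawn to scale; the x axis is the distance in bp from the low-coordinate end of the gene (grey bar), each row is 1 replicate, and the number is the deposited score. TEM2, RAV1 and TEM1 carry a bar on the gene in all 3 rows, and the other 3 genes carry none.

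TEM2, a repressor of FT, had the highest score of the family in every list. Its body peaks scored 338 in replicate 1, 563 in replicate 2 and 2268 in replicate 3. They ranked 823 of 5237, 605 of 4216 and 96 of 3661, so that 84.3%, 85.6% and 97.4% of the peaks of the lists scored lower. The peaks lay on chromosome 1 (TAIR10), at chr1:25879950-25882240 in replicate 1, chr1:25880253-25882366 in replicate 2 and chr1:25879832-25881825 in replicate 3. They were the widest of the family, 2133 bp ± 149 (SD, n = 3), and covered 92.0% ± 10.0 of the 2068 bp gene. The stretch common to all 3 lists, chr1:25880253-25881825, was 1573 bp long and covered 76.1% of the gene. Among the 1029 genes with a body peak in every list, the median of this common cover was 34.9%, and 174 genes (16.9%) had more than TEM2. No other annotated gene lay under the region.

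TEM2 was also the only member whose body peaks all scored at least 100, a mark that 573 of all protein-coding genes (2.09%) reached in every list. A further, weak peak of replicate 1, at chr1:25877846-25879230 with a score of 27.8, lay 924 bp from the gene and was the only peak in a member's flank. In replicate 2, a peak scored 44.5 lay 1767 bp from TEM2, on the nearby gene AT1G68850. Both scored far below the body peaks of the same lists, and the other lists had no peak at those places.

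RAV1, a regulator of growth and leaf ageing, came next in score in every list. Its peaks scored 126 in replicate 1, 299 in replicate 2 and 29.5 in replicate 3. In replicates 1 and 2, 75.1% and 80.2% of the peaks of the list scored lower, against 21.9% in replicate 3, where the RAV1 peak ranked 2859 of 3661. The peaks were at chr1:4542012-4543441 in replicate 1, chr1:4542013-4543917 in replicate 2 and chr1:4542073-4543177 in replicate 3.

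The 3 RAV1 peaks shared their low-coordinate edge, which moved by 61 bp over the lists, while the high edge moved by 740 bp. The peaks began 156, 155 and 95 bp outside the low end of the gene and ended inside it, covering 70.7%, 97.1% and 56.0% of its 1803 bp in replicates 1, 2 and 3. The narrowest, that of replicate 3, lay wholly within each of the others, so the common stretch was that peak itself, 1105 bp long. It covered 56.0% of the gene, and 29.6% of the 1029 genes with a body peak in every list had more cover. The high-coordinate neighbour MAP1C (AT1G13270), which encodes a methionine aminopeptidase, lies 918 bp from RAV1 and had no peak on its body in any list. All RAV1 peaks ended short of the high end of RAV1. Strand is not in the gene table, so which edge is the promoter side was not analysed here.

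TEM1, the partner of TEM2 in repressing FT, had the weakest and narrowest peaks of the 3. Its peaks scored 67.8 in replicate 1, 111 in replicate 2 and 23.3 in replicate 3, where only 10.0% of the peaks of the list scored lower. In replicates 1 and 2 the shares were 68.0% and 69.4%. The peaks were at chr1:8982181-8983377, chr1:8981887-8983162 and chr1:8981956-8982679 and measured 1066 bp ± 298 (SD, n = 3).

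Cover of TEM1 was the least of the 3 genes. The peaks covered 64.5%, 72.5% and 41.2% of its 1759 bp, and all of them began inside the gene, 331 to 625 bp from its low end. The common stretch of 499 bp, chr1:8982181-8982679, ran from 35.5% to 63.8% of the gene's length, in its middle. At 28.4% of the gene it was below the median of 34.9%, and 60.5% of the 1029 genes had more. The peaks of replicates 1 and 3 overlapped by 68.9% of the shorter, the least of all 9 pairs of peaks in the family, and the RAV1 pairs overlapped by at least 99.9%.

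The order TEM2, RAV1, TEM1 by score was thus the same in each of the 3 lists, and so was their order by common cover of the gene. RAV1 and TEM1 scored highest in replicate 2 and lowest in replicate 3, while TEM2 scored highest in replicate 3. Compared only with the body peaks of the 1029 genes, TEM2 scored above 55.3%, 60.5% and 91.0% of them in replicates 1, 2 and 3. RAV1 scored above 37.8%, 50.6% and 7.97%, and TEM1 above 25.5%, 33.9% and 4.28%. In replicate 3 the family thus held 1 peak near the top of these genes and 2 near the bottom. By the lowest of its 3 list standings, TEM2 (84.3%) was above the median gene of the 1029 (69.7%), and RAV1 (21.9%) and TEM1 (10.0%) were below it. Scores are not corrected for depth, and the part of depth in these differences was not tested.

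**Figure D2:**
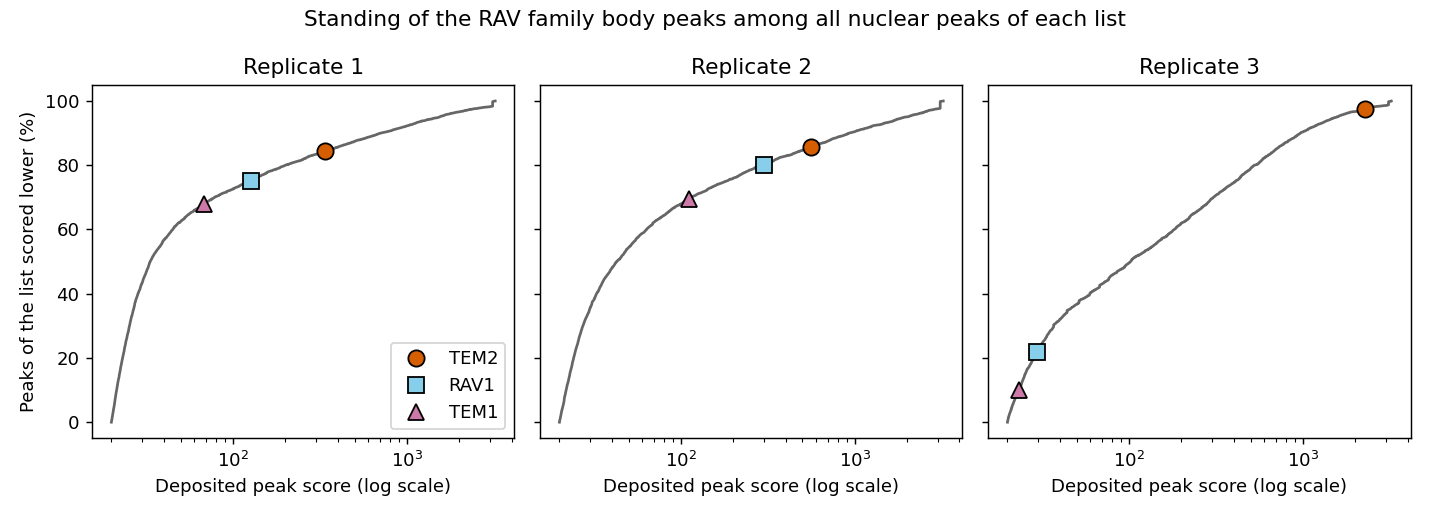
Standing of the body peaks of TEM2, RAV1 and TEM1 in each list; the x axis is the deposited score on a log scale, the y axis the percent of nuclear peaks of that list that scored lower, and the grey line is all nuclear peaks. The order of the 3 genes is the same in each panel, and RAV1 and TEM1 lie at 21.9% and 10.0% in replicate 3.

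EDF3, an ethylene-response member, had the most empty surroundings of the 3 genes without a peak. Its nearest peak lay 19673, 20687 and 35623 bp away in replicates 1, 2 and 3, and the nearest reproducible region 39375 bp away. The gene next to EDF3 is MAP1B (AT3G25740), 17 bp away, so EDF3 and RAV1 both neighbour a methionine aminopeptidase gene. MAP1B had no peak on its body either. RAV1 and EDF3 thus differed in EBS peaks, with no body peak at either of these neighbours.

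AT1G50680 and AT1G51120 are the shortest members, at 1014 and 1059 bp, and whether these lengths include UTRs was not analysed here. Over all genes, 6.01% of the 715 protein-coding genes of 1000 to 1100 bp had a reproducible region. The share was 7.36% for the 1685 genes of 1400 to 1600 bp, the range of EDF3 (1495 bp). It was 6.81% for the 3845 genes of 1700 to 2100 bp, the range of TEM2, RAV1 and TEM1. AT1G50680 had its nearest peaks 6661, 19049 and 16320 bp away in replicates 1, 2 and 3. The nearest reproducible region was 27854 bp away.

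AT1G51120, by contrast, lay close to strong peaks. A reproducible region on the nearby genes AT1G51090 and CRR41 was 3464 bp away, with scores of 703, 596 and 1053 in replicates 1, 2 and 3. These scores were above those of RAV1 and TEM1 in every list. A weak replicate 2 peak, scored 37.5, lay 2777 bp off on the other side of the gene. Within 50000 bp of AT1G51120 there were 4 reproducible regions, yet none reached the gene.

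TEM1 also had company. Its low-coordinate neighbour AT1G25550, 3250 bp away, had body peaks scored 78.7, 206 and 21.8, beside the TEM1 scores of 67.8, 111 and 23.3 in the same lists. A separate replicate 1 peak scored 46.4 lay 1883 bp from TEM1 on no annotated gene. TEM1 had 5 reproducible regions within 50000 bp, its own included, RAV1 had 2 and TEM2 had only its own. Over these 3 genes the counts ran in the reverse order of the scores, but the other members did not follow that order. EDF3 and AT1G50680 had 1 region each within 50000 bp and AT1G51120 had 4, and none of them had a peak within 1000 bp.

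Genes that work with or under the family were described by the same rule, in 5 lists of 32 genes in all. Reproducible regions were found at 2 of the 32 (6.25%), close to the 6.68% of all protein-coding genes. Single lists differed. Replicates 1, 2 and 3 had a peak at 13, 12 and 2 of these 32 genes (40.6%, 37.5% and 6.25%), where 20.8%, 17.1% and 11.7% of all genes had one. The 17 peaks of replicate 1 had a median score of 25.8 and the 13 of replicate 2 one of 41.0, and by their median 31.4% and 48.6% of the peaks of the list scored lower. The 2 genes with a replicate 3 peak were GA3OX2 and TPL.

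Among 8 genes downstream of TEM1 and TEM2, 1 held a reproducible region, against 6.68% of all genes, and it was GA3OX2. It encodes a gibberellin 3-oxidase, which makes the active hormone, and TEM1 and TEM2 repress it. Its body peaks scored 105 in replicate 1, 216 in replicate 2 and 362 in replicate 3, and 73.1%, 76.8% and 73.0% of the peaks of the lists scored lower. They lay at chr1:30201550-30203087, chr1:30201345-30202459 and chr1:30201367-30202316, and covered 48.7% ± 5.59 of the gene (SD, n = 3). The common stretch of 767 bp ran from 57.5% to 98.2% of the gene's length, counted from its low-coordinate end. GA3OX2 scored above TEM1 and below TEM2 in all 3 lists.

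Of the 8 genes, 5 had no peak in any list, where 68.3% of all protein-coding genes had none. GA3OX1, which encodes the companion enzyme, had no peak in any list, and neither had FT or TSF, a relative of FT. GA3OX4, the neighbour of GA3OX2, had a body peak in replicate 1 alone, scored 67.0. Of the genes of leaf hair formation, which the TEM proteins also repress, ZFP8 had a replicate 1 peak scored 22.1 and GIS a replicate 2 peak scored 41.3 that lay 395 bp outside it, while the others of that kind in the list had none.

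None of the 7 nearest relatives of the family by their B3 domain, the NGATHA genes and their like, held a reproducible region. Among all genes, 6.68% did. NGA1, a regulator of leaf and pistil growth, had body peaks scored 28.9 and 41.0 in replicates 1 and 2. NGAL1 (ABS2) had 27.4 and 31.4 in the same lists. NGA2 and NGA3 had a replicate 2 peak alone, scored 48.2 and 40.6. NGA4, AT3G11580 and DPA4 had none. In replicates 1 and 2, 2 and 4 of the 7 had a peak, where 20.8% and 17.1% of all genes did. No gene of this list had a peak in replicate 3, in which 11.7% of all genes had one.

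Relatives by the AP2 domain that also repress flowering held no reproducible region in 6 cases, where 6.68% of all genes held one. A peak of any list was found at 3 of the 6, where 31.7% of all genes had one. AP2 had a replicate 1 peak scored 41.4, TOE2 a replicate 2 peak scored 26.1, and SNZ a replicate 1 peak scored 22.6. The SNZ peak lay 258 bp outside the gene. TOE1, TOE3 and SMZ had none. Of 5 TOPLESS corepressor genes none held a reproducible region, and 2 had a peak in some list. TPL had peaks scored 24.2 and 33.0 in replicates 1 and 3, and TPR4 had 22.0 and 41.8 in replicates 1 and 2, and in neither gene did the peaks of the lists overlap. TPR1, TPR2 and TPR3 had no peak.

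Of 6 regulators that act on FT or on the TEM genes, 5 had a peak in some list, where 31.7% of all genes did. FLC was the 1 counted with a reproducible region, where 6.68% of all genes held one, and that region lay off the gene. Its strong peaks, scored 1403 and 1423 in replicates 1 and 2, lay 852 and 430 bp outside FLC, and its body carried a replicate 2 peak scored 24.5. Replicate 3 had no peak within 1000 bp of FLC, which was counted because the merged region reached that window. SVP, a repressor of FT, had body peaks scored 69.5 and 61.4 in replicates 1 and 2, beside the TEM1 values of 67.8 and 111, and none in replicate 3. LHP1 (TFL2), which binds Polycomb-marked histones, had 434 and 30.4, and PIF4, a growth-promoting factor, had 52.9 and 30.2. CO, the activator of FT, had a replicate 1 peak scored 25.8, and the clock-linked gene GI had none.

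**Figure D3:**
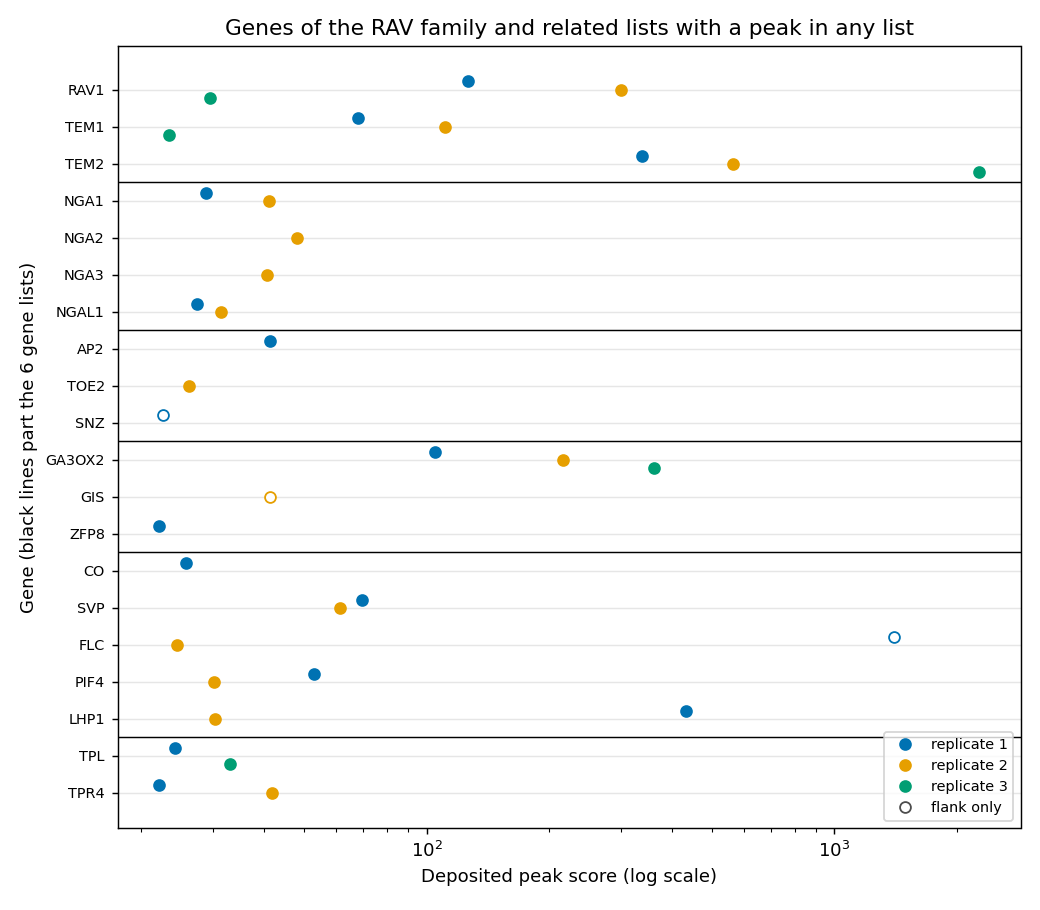
Scores of the genes of the RAV family and the 5 related lists that had a peak in any list; the x axis is the deposited score on a log scale, each point is the gene's best body peak in 1 replicate or, where open, its best peak within 1000 bp, and black lines part the lists. RAV1, TEM1, TEM2 and GA3OX2 are the genes with a point for all 3 replicates.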

How the data were processed

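Peak lists of 3 ChIP samples were used. Bowtie2 2.2.8, SAMtools 1.3, MACS 1.4 and build TAIR10 are named in the submitters' processing notes. The authors deposited 1 list per sample, with start, end and score of each peak. No source used here states the threshold or the use of the input, though all 3 lists begin at a score near 20. A list holds no read counts, so depth is unknown. Chloroplast and mitochondrial peaks were left out, and coordinates start at 1.

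Genes were placed with a RefSeq table of TAIR10.1, taken to share the nuclear frame of TAIR10. As a check, 74.0% of the midpoints of the 1780 reproducible regions lay in a gene, against 57.4% to 61.3% after shifts of 1000 to 50000 bp. All 38 listed genes matched by locus tag. No sequence was available for the planned protein, promoter and motif steps, which were not run. Code was written in Python 3.11.15 and tested on simulated lists. Members and lists were chosen with earlier results of these data known. Named genes were all members and, of each other list, those with a peak within 1000 bp and up to 3 without. GA3OX4, AT1G25550, MAP1B, MAP1C, CRR41, AT1G51090 and AT1G68850 were named after their values were seen.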

Additional observations from a re-analysis of the deposited data

How the results depend on the processing

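The same 3 members held a reproducible region under 8 of 9 alternatives: an overlap of 50% of the shorter peak, 2 lists in place of 3, a 500 bp flank, the gene body only, lists of equal length (3661 peaks), and without each replicate in turn (3 to 3 genes). Most of these could not have dropped a member, because each of the 3 had overlapping body peaks in every list. The least overlap of a pair was 68.9% of the shorter peak. These 8 settings thus say little about how strong the peaks were. With a score of at least 100 for every peak, 1 member was left, TEM2, where 3.9% of all genes held a region. At this mark 2, 3 and 1 members had a peak in replicates 1, 2 and 3. It keeps 27.5%, 32.0% and 50.4% of the peaks of these lists, and the matching shares of all genes were not analysed here. The NGATHA list had 2 genes with peaks of at least 2 lists and 0 to 2 without 1 replicate, the higher count without replicate 3. The regulators had 4 genes with peaks of at least 2 lists, 0 with the gene body only and 1 to 4 without 1 replicate, again the higher count without replicate 3. Over all genes, 6.68% held a region as reported, 11.3% with at least 2 lists, 4.7% on the gene body only, and 7.29%, 7.22% and 9.57% without replicates 1, 2 and 3. Other counts stayed within 1.5 times. No paired analysis was possible because only the ChIP samples have lists and no test compared groups. The TEM1 peak of replicate 3, scored 23.3, lay close to the lowest score of that list, 20.01.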
